A study of Mus musculus with 8 samples.

Results

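The genes described here are 55 mouse genes of innate immune sensing and inflammation: Toll-like receptors and their lipopolysaccharide co-receptors, the adaptors and kinases behind them, NF-kB subunits and inhibitors, inflammasome components, cytokines and cytokine receptors, chemokines, Fc receptors, and a few further genes of leukocytes. A gene was included by name, through the RefSeq transcript that each array probe is annotated with, and the rule itself used no measured value. All 55 genes, out of 20018 genes named on the array, had at least 1 probe, with 67 probes among 55681. They were compared between the whole retina of wildtype (WT) and Lpcat1 knockout (KO) mice of the strain C57BL/6 at 2 weeks of age, with 4 samples of each genotype and 1 array per sample. Lpcat1 encodes an acyltransferase that makes phosphatidylcholine from lysophosphatidylcholine, and the labels name no treatment. The KO line came from a C57BL6/N background that carries the rd8 mutation of Crb1. It was crossed with C57BL6/J mice, and animals homozygous for rd8 were not used. The knockout was global, not limited to a cell type. The labels do not say whether the 4 samples of a genotype came from separate animals, so p-values measure only the spread between these samples.

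Toll-like receptors recognise microbial and damage-derived molecules and signal through Myd88, Irak kinases and Traf6 to NF-kB, a transcription factor that is held in the cytoplasm by inhibitor proteins until those are degraded. NF-kB raises the transcription of cytokines and chemokines, and the inflammasome (Nlrp3, Pycard, Casp1) cleaves the precursors of interleukin-1 beta and interleukin-18 to their active forms. In the retina most of these genes are known from microglia, the resident macrophages, while Müller glia and neurons carry some of the cytokine receptors and make Cx3cl1, Cxcl12 and Il34.

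A level is the log2 of a probe's signal after subtraction of its array's 75th percentile, and a difference is the mean level in KO minus that in WT. Each difference comes with its SE (standard error) and limma's p, adjusted by Benjamini-Hochberg over all tested probes. Testing required a signal well above background on every array of WT, of KO or of both, and a call required an adjusted p below 0.05 with a change of more than 1.2-fold. Between 33113 and 36373 probes were well above background on an array, 33972 were tested and 992 of them were called (2.92%), 470 higher (1.38%) and 522 lower (1.54%) in KO. Other scalings gave splits of 527 higher and 385 lower (quantile), 562 and 370 (percentile of probes detected on every array) and 627 and 339 (cyclic loess). The Lpcat1 probe itself differed by -0.46 (SE 0.04, adjusted p = 0.00368), a ratio of 0.725, and was still well above background on all 4 KO arrays. It is not known here if the probe falls inside the deletion, so its value is no check of the knockout. All 8 arrays lay on 1 slide, with WT in its own row and KO in the other, so slide row and genotype cannot be told apart for any value below. In whole tissue, fewer cells of a type and less RNA per cell cannot be told apart either.

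Of the 55 genes, 35 could be tested and 20 could not. Among the 35, 8 genes were called higher in KO and 0 were called lower: Ccl6, Tlr2, Nfkbiz, Ccl9, Fcgr3, Il1r1, Relb and Tnfrsf1a. The share of 22.9% stands beside 2.2% of the 14939 tested genes that were called higher and 1.77% that were called lower, and since the genes were chosen with earlier results known it is a description and no independent evidence. The 4 KO values lay above all 4 WT values in 18 of the 35 genes (51.4%), where this held for 8.77% of all tested genes, and below them in 0 of the 35, where it held for 12.4%. An unadjusted p under 0.05 was reached by 22 of the 35, beside 26.3% of all tested genes. The median difference of the 35 genes was 0.20, from -0.21 for Nlrp3 to 1.17 for Ccl6, and 28 of them were higher in KO. With normexp background correction the median was 0.12 and the difference of Ccl6 0.60. Over all tested genes the median was -0.02, with 42.1% higher in KO and quartiles of -0.09 and 0.06.

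**Figure D1:**
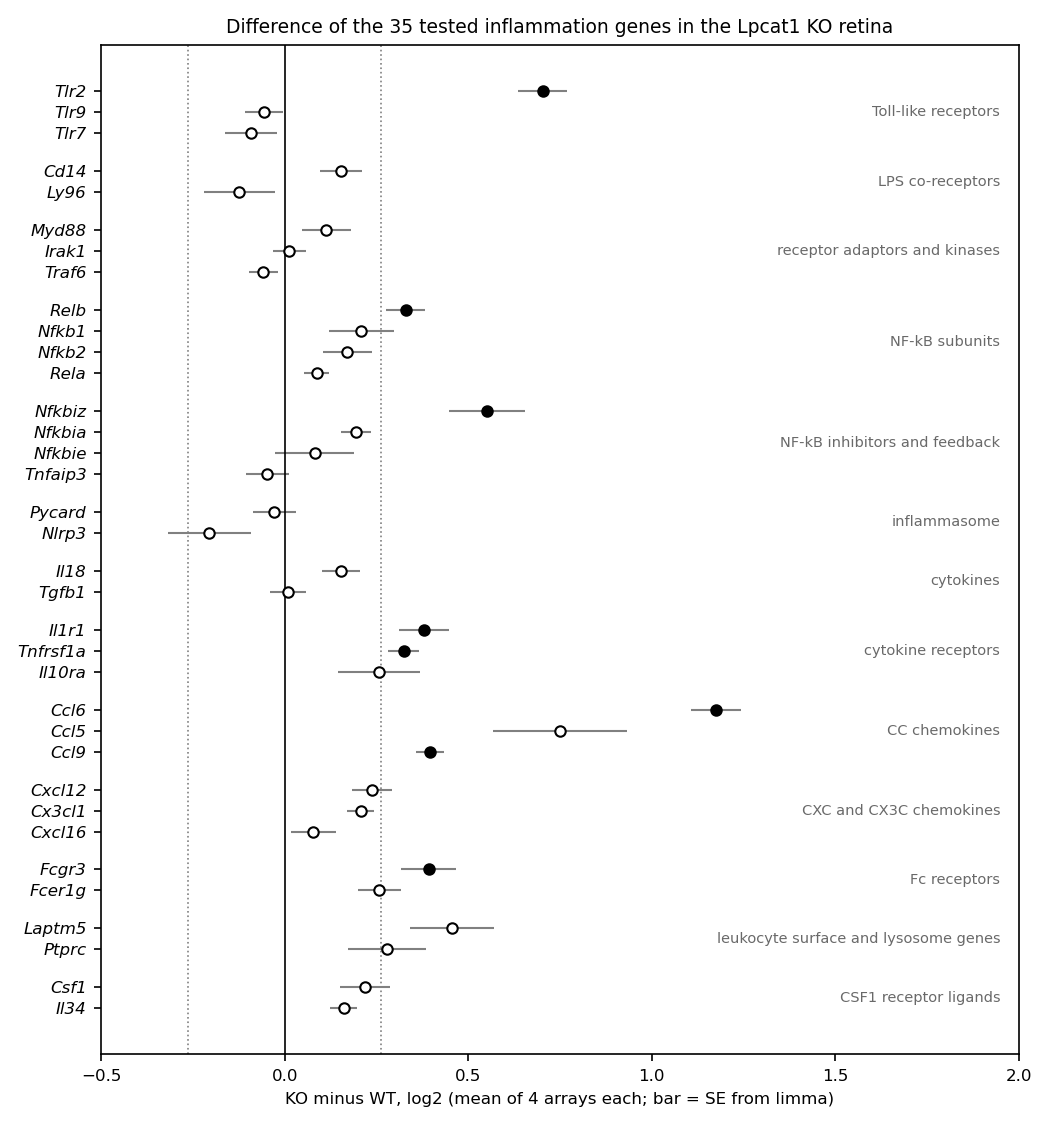
Difference between KO and WT for each of the 35 tested genes, in blocks by role, as log2 level in KO minus that in WT (x axis); points are the means of 4 arrays against 4, bars are the SE from limma, filled points are the 8 called genes and dotted lines mark a fold change of 1.2 in either direction. The called points run from 0.32 for Tnfrsf1a to 1.17 for Ccl6, and the inflammasome block lies at or below 0.

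The shift was seen on each KO array. Relative to the mean of the 4 WT arrays, the median of the 35 genes was 0.13 on KO array 1, 0.19 on KO array 2, 0.22 on KO array 3 and 0.21 on KO array 4, and between -0.02 and 0.02 on the WT arrays. KO array 1 was thus the lowest of the KO arrays, and the genotypes did not overlap in this median. Leaving out KO array 1 raised the number of called genes among the 35 from 8 to 9, and leaving out any other array lowered it to 4 or 5. Of the lower counts, 4 came without KO array 2, and the count was 5 without KO array 3 or 4 or without any of the WT arrays. Tlr2, Ccl6, Ccl9 and Tnfrsf1a were called in each of these 8 fits. Other processing ended some calls as well. With normexp background correction the differences of Relb, Il1r1 and Fcgr3 were 0.23, 0.20 and 0.21, under the minimum fold. With no filter on dim probes Relb, Nfkbiz, Il1r1 and Fcgr3 had adjusted p of 0.0681, 0.0847, 0.0812 and 0.0887. A median shift of the arrays ended the calls of Il1r1 (adjusted p = 0.0532) and Fcgr3 (adjusted p = 0.0582).

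**Figure D2:**
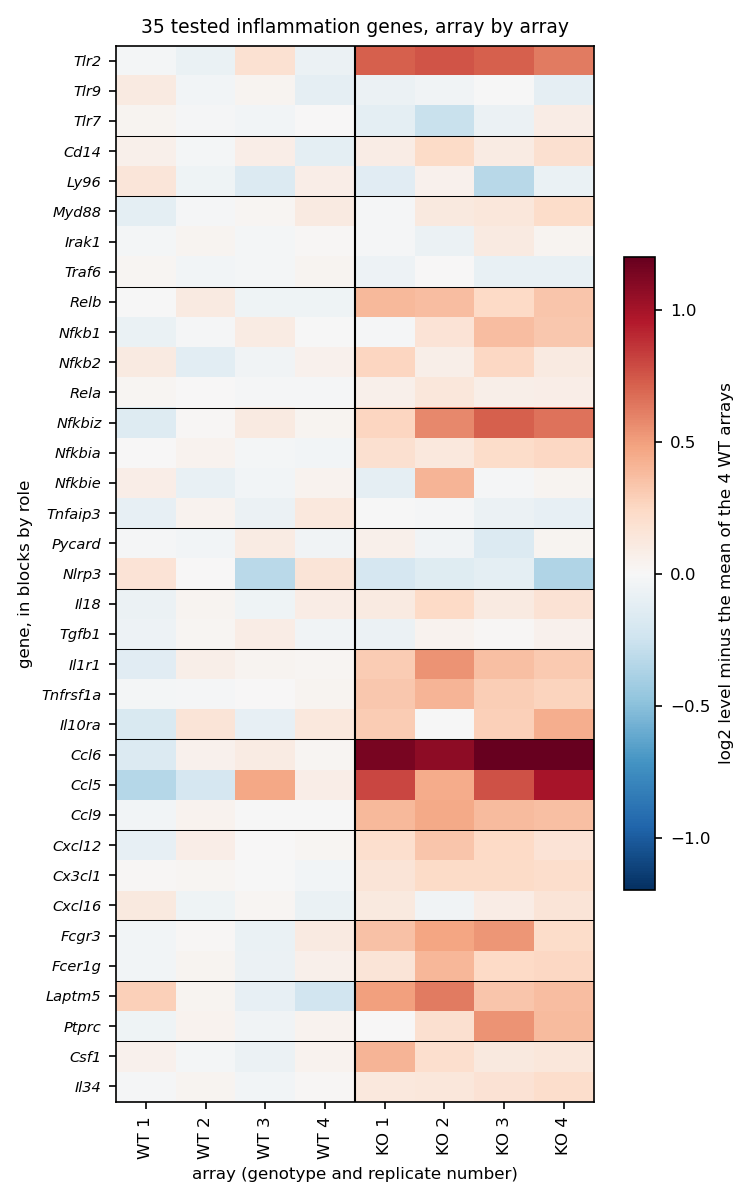
Level of each of the 35 tested genes (rows, in blocks by role) on each array (columns), as log2 level minus the mean of the 4 WT arrays; red is above and blue below that mean, and the scale ends at 1.2 in either direction. The rows of Tlr2, Nfkbiz, Ccl6 and Ccl5 are the darkest in the KO columns, while Tlr7, Tlr9, Traf6, Pycard and Nlrp3 show no red block there.

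Promoter sequence was available for 41 of the 55 genes in a RefSeq table of the GRCm38.p6 assembly, which gives 250 bases before and 50 bases after each transcription start. The NF-kB consensus site, searched by its letters on either strand, was present for 16 of the 41 genes (39.0%) and for 2581 of the 27025 genes of the table (9.55%). Among the called genes, 6 had a promoter in the table and 4 of these held the consensus: Tlr2, Ccl9, Fcgr3 and Il1r1. The sequence GAGGAA, the core bound by the myeloid factor PU.1 and searched on either strand, was present for 16 of the 41 genes (39.0%) and for 31.3% of all genes, and among the 6 called genes for Fcgr3 alone. A match is a description of these letters and no evidence that a factor binds. The 250 bases before the start are printed 5′ to 3′ on the strand of the gene for the called receptors and chemokine with a match, and for Ccl6, the gene with the largest difference among the 35, which has none. Capitals mark the NF-kB consensus.
Tlr2 (chr3:83841609-83841858, minus strand): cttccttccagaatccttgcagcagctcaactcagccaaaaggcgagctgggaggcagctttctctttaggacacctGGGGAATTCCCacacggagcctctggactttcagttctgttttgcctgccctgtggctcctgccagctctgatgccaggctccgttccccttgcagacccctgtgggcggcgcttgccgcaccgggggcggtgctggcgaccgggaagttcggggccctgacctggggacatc
Ccl9 (chr11:83578637-83578886, minus strand): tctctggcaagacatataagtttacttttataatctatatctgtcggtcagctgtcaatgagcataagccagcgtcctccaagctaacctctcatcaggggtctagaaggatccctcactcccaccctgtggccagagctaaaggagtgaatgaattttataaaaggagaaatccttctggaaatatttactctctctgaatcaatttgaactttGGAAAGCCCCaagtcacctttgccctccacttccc
Fcgr3 (chr1:171059395-171059644, minus strand): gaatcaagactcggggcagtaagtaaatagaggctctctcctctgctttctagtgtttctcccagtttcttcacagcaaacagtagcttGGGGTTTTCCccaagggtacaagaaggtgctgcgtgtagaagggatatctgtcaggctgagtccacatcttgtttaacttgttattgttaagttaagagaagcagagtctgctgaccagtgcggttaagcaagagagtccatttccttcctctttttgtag
Il1r1 (chr1:40266336-40266585, plus strand): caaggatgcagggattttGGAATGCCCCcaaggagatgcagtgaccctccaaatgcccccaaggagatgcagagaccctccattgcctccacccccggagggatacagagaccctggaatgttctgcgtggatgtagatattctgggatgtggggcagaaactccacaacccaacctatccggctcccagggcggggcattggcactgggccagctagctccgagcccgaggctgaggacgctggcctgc
Ccl6 (chr11:83593088-83593337, minus strand): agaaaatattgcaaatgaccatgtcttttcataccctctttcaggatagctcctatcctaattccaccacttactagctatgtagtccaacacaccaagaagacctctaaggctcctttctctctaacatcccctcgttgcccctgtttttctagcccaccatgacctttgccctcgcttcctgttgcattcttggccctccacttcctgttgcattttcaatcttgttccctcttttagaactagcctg
In Tlr2 a pair of overlapping matches began 173 and 172 bases before the start, and another that begins 8 bases before it runs across the start and is not marked. The match of Ccl9 began 35 bases before its start. Fcgr3 and Il1r1 each have another annotated start. For Fcgr3 the same match lies 152 bases before the other start and 161 before the start shown, and for Il1r1 the match lies 232 bases before the start shown, with none at the other.

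Among the 7 Toll-like receptors of the set, Tlr2 rose in KO and no other was called. Tlr2, a receptor for bacterial lipoproteins that is abundant on microglia, had levels of -4.58, -4.64, -4.37 and -4.63 on the WT arrays and -3.84, -3.81, -3.84 and -3.93 on the KO arrays. Every KO array was above every WT array, with the KO arrays closer together than the WT arrays. The difference was 0.70 (SE 0.07, adjusted p = 0.00393), a ratio of 1.63, and it was called without any 1 of the 8 arrays. With normexp background correction in place of the scanner's own, it was 0.264, only just over the 1.2-fold minimum, and still called. Tlr2 was the dimmest of the called genes. The nucleic acid receptors Tlr7 and Tlr9, which act in endosomes, differed by -0.09 and -0.06 (adjusted p = 0.481 and 0.56), with overlapping arrays.

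Tlr1 and Tlr6, the partners with which Tlr2 forms its receptor pairs, and Tlr3 and Tlr4 reached no reading well above background on the 8 arrays, so no direction can be given for them. Tlr4, the receptor for lipopolysaccharide, read -6.09, -6.43, -5.76 and -5.87 on the WT arrays and -5.67, -5.59, -5.59 and -6.11 on the KO arrays, all within the background range. Its co-receptors were measured. Cd14, which hands lipopolysaccharide to Tlr4, had a mean level of -2.79 ± 0.09 in WT and -2.64 ± 0.07 in KO (mean ± SD of 4 arrays). Its difference of 0.15 (SE 0.06, adjusted p = 0.15) was not called although the genotypes did not overlap. Ly96, the protein that binds lipopolysaccharide together with Tlr4, differed by -0.12 (SE 0.10, adjusted p = 0.479).

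The adaptors and kinases behind the receptors showed no called difference. Myd88, the adaptor shared by most Toll-like receptors and the interleukin-1 receptor, had levels of -0.38, -0.28, -0.24 and -0.15 in WT and -0.28, -0.15, -0.13 and -0.04 in KO. The arrays overlapped, and the difference was 0.11 (SE 0.07, adjusted p = 0.344). Irak1, the kinase that Myd88 recruits, had 3 probes with differences of 0.01, 0.08 and 0.07, and Traf6, the ubiquitin ligase after it, differed by -0.06 (adjusted p = 0.41). Irak4 was not tested, since its brighter probe was well above background on 3 WT and 2 KO arrays.

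All 4 NF-kB subunits on the list were higher in KO, and Relb was the one called. Relb, the partner of the p52 subunit in the non-canonical branch, had levels of -1.76, -1.65, -1.81 and -1.80 in WT and -1.37, -1.39, -1.52 and -1.43 in KO. Its KO arrays all lay above its WT arrays. The difference was 0.33 (SE 0.05, adjusted p = 0.0184), and its other probe gave 0.32 (adjusted p = 0.0348) and was called too. At the brighter probe Relb was no longer called when KO array 2 or 4 or WT array 1 or 3 was left out, with adjusted p of 0.0591 without KO 2, 0.0524 without KO 4, 0.0507 without WT 1 and 0.0557 without WT 3.

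The other subunits were not called. Rela, the transactivating p65 subunit, had levels of 3.29, 3.27, 3.25 and 3.25 in WT and 3.33, 3.40, 3.34 and 3.35 in KO. The spread was narrow and the genotypes did not overlap, yet the difference of 0.09 (SE 0.03, adjusted p = 0.178) was small and not called. Nfkb1, which encodes the p105 precursor of p50, read -2.25, -2.18, -2.06 and -2.17 in WT and -2.18, -2.0, -1.80 and -1.84 in KO. KO array 1 fell within the WT range, and the difference was 0.21 (SE 0.09, adjusted p = 0.195). Its other probe was well above background on 3 WT arrays and 1 KO array and was not tested. Nfkb2, the precursor of p52, differed by 0.17 (SE 0.07, adjusted p = 0.169).

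Of the inhibitors and feedback genes, which are themselves NF-kB targets, Nfkbiz was called. Nfkbiz encodes a nuclear inhibitor-like protein that switches on a subset of inflammatory genes, and its levels were -2.23, -2.06, -1.97 and -2.05 in WT and -1.82, -1.50, -1.36 and -1.42 in KO. KO array 1 was the lowest of the KO arrays and still above every WT array. The difference was 0.55 (SE 0.10, adjusted p = 0.0272), a ratio of 1.47. This call was kept only without KO array 1 and was lost without any other array, with differences of 0.50 to 0.59 and adjusted p of 0.0764 without KO 2, 0.063 without KO 3, 0.0707 without KO 4, 0.0666 without WT 1, 0.0749 without WT 2, 0.0592 without WT 3 and 0.0628 without WT 4.

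Nfkbia, the classical cytoplasmic inhibitor, had levels of 2.14, 2.18, 2.11 and 2.10 in WT and 2.32, 2.26, 2.35 and 2.38 in KO. The genotypes did not overlap, but the difference of 0.20 (SE 0.04, adjusted p = 0.0373) was under the 1.2-fold minimum, so it was not called. Nfkbie, a related inhibitor, differed by 0.08 (SE 0.11, adjusted p = 0.686), with KO array 2 alone above the WT range. Tnfaip3, the ubiquitin-editing protein A20 that ends NF-kB signalling, differed by -0.05 (SE 0.06, adjusted p = 0.662).

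No inflammasome gene was called. The sensor Nlrp3 had levels of -3.36, -3.52, -3.85 and -3.37 in WT and -3.72, -3.67, -3.64 and -3.89 in KO. The ranges overlapped, and the difference was -0.21 (SE 0.11, adjusted p = 0.316). Its other probe, well above background on 4 WT and 2 KO arrays, read -4.86, -4.43, -3.93 and -4.23 in WT and -4.74, -4.65, -4.78 and -4.29 in KO, a difference of -0.25 (SE 0.19, adjusted p = 0.468). Neither Nlrp3 probe was called. Pycard, the adaptor that links the sensor to caspase-1, differed by -0.03 (SE 0.06, adjusted p = 0.814), a value too small to hold its sign (0.0032 with normexp and 0.02 without KO array 3). Casp1, the protease, was well above background on 1 WT and 1 KO array and was not tested. It read -5.22, -4.84, -4.55 and -5.18 in WT and -4.69, -4.75, -4.96 and -5.31 in KO, with overlapping arrays.

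The classical cytokines were not detected. The probes of Il1a, Il1b, Il6 and Tnf gave no reading well above background on the 8 arrays, and neither did those of the cytokine receptor Tnfrsf1b, the chemokine Cxcl1, the prostaglandin synthase Ptgs2 and the inhibitory Fc receptor Fcgr2b. Il1b read -7.28, -7.20, -7.20 and -7.13 in WT and -7.18, -6.78, -6.88 and -7.04 in KO. Readings of Il6 were -7.25, -7.15, -7.16 and -7.11 in WT and -7.15, -6.74, -6.82 and -7.01 in KO, and those of Tnf were -6.92, -7.02, -7.04 and -7.15 in WT and -6.98, -6.56, -6.77 and -6.99 in KO. These are background readings, for which no fold is given. The lowest signal of any probe that counted as well above background was between -5.23 and -5.08 on the WT arrays and between -5.11 and -4.71 on the KO arrays, and on KO arrays 2, 3 and 4 this limit was above that of every WT array. Whether these cytokines differed below that limit cannot be seen in these arrays.

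The measured cytokines were Il18 and Tgfb1. Il18, a cytokine that the inflammasome activates, had levels of -0.14, -0.04, -0.12 and 0.02 in WT and 0.04, 0.17, 0.04 and 0.10 in KO. The KO arrays lay just above the WT arrays, and the difference of 0.15 (SE 0.05, adjusted p = 0.118) was not called. Tgfb1, an anti-inflammatory growth factor that keeps microglia in a resting state, read -2.81, -2.72, -2.66 and -2.80 in WT and -2.82, -2.71, -2.73 and -2.70 in KO. Its arrays overlapped, with a difference of 0.01 (SE 0.05, adjusted p = 0.934).

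Although interleukin-1 and tumour necrosis factor themselves were not detected, a receptor of each was called higher in KO. Il1r1, the signalling receptor of interleukin-1, had levels of -2.76, -2.55, -2.59 and -2.60 in WT and -2.32, -2.09, -2.27 and -2.31 in KO. Its KO arrays all lay above the WT arrays. The difference was 0.38 (SE 0.07, adjusted p = 0.0243), a ratio of 1.3. It was called without KO array 1 but not without any other array, where adjusted p was 0.0519 without KO 2, 0.0575 without KO 3, 0.0533 without KO 4, 0.0552 without WT 1, 0.0609 without WT 2, 0.0624 without WT 3 and 0.0579 without WT 4.

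Tnfrsf1a, the main receptor of tumour necrosis factor, had levels of -0.94, -0.93, -0.91 and -0.89 in WT and -0.59, -0.51, -0.62 and -0.65 in KO. Both genotypes were tight and well apart. The difference was 0.32 (SE 0.04, adjusted p = 0.0105), and it was called without any 1 of the 8 arrays. Another Tnfrsf1a probe read -1.09, -1.03, -0.92 and -0.97 in WT and -0.83, -0.73, -0.80 and -0.79 in KO, which also do not overlap. Its difference was 0.21 (SE 0.05, adjusted p = 0.0427), under the minimum fold, so the 2 probes had the same direction and differed in the call. Il10ra, the receptor of the anti-inflammatory interleukin-10, differed by 0.26 (SE 0.11, adjusted p = 0.213), with KO array 2 inside the WT range.

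The CC chemokines held the largest differences. Ccl6 and Ccl9 are closely related mouse chemokines made by myeloid cells and known as ligands of the receptor Ccr1. Ccl6 read -3.51, -3.30, -3.25 and -3.32 in WT and -2.21, -2.27, -2.10 and -2.09 in KO. Its genotypes were separated by a gap wider than the range within either. The difference was 1.17 (SE 0.07, adjusted p = 0.000517), a ratio of 2.26, and was called without any 1 of the 8 arrays. With normexp it was 0.60 and also called.

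Ccl9 had levels of -0.88, -0.80, -0.85 and -0.85 in WT and -0.45, -0.39, -0.47 and -0.48 in KO. The KO arrays again all lay above the WT arrays, with a narrow spread in each genotype. The difference was 0.40 (SE 0.04, adjusted p = 0.00397), a ratio of 1.32, called without any 1 of the 8 arrays and 0.36 with normexp. Ccl5, a chemokine for T cells and monocytes, read -4.33, -4.20, -3.53 and -3.92 in WT and -3.19, -3.55, -3.24 and -3.00 in KO. WT array 3 lay inside the KO range, between KO array 2 and the other KO arrays. The difference of 0.75 (SE 0.18, adjusted p = 0.0542) just missed the threshold. It was 0.33 with normexp (adjusted p = 0.0482) and 0.91 (adjusted p = 0.0419) without WT array 3, called in both, and over the alternatives that kept all arrays the adjusted p ran from 0.0165 to 0.132, with 4 of 14 calling it.

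Ccl3, Ccl4, Ccl2 and Ccl12 could not be tested. Ccl4, a chemokine for monocytes and T cells, was at background on the WT arrays and well above it on KO arrays 1, 3 and 4, with readings of -7.18, -7.12, -6.27 and -6.48 in WT and -4.32, -4.73, -3.73 and -4.32 in KO. Its neighbour Ccl3, a ligand of Ccr1, was well above background on 0 WT arrays and on KO arrays 1 and 3, and read -5.08, -5.41, -5.83 and -5.51 in WT and -4.53, -4.81, -3.74 and -4.66 in KO. The KO readings of both genes lay above all their WT readings, but no fold is given, since readings at background have no lower bound. When every probe was tested with no filter on dim probes, Ccl4 was called (adjusted p = 0.0257) and Ccl3 was not (adjusted p = 0.128).

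Ccl2, the main chemokine for monocytes, was well above background on KO array 1 alone. It read -5.87, -6.18, -5.00 and -5.88 in WT and -4.46, -6.05, -4.97 and -5.47 in KO, with overlapping genotypes. Ccl12, another monocyte chemokine, was well above background on 3 WT and 3 KO arrays and read -4.27, -5.22, -3.92 and -4.45 in WT and -2.87, -4.39, -3.78 and -3.65 in KO, which overlap. With no filter on dim probes, neither Ccl2 (adjusted p = 0.501) nor Ccl12 (adjusted p = 0.258) was called. By the order of genes in the RefSeq table, Ccl5, Ccl9, Ccl6, Ccl3 and Ccl4 are direct neighbours on chromosome 11, with 0 protein-coding genes between each and the next. Ccl2 and Ccl12 lie apart from this run on the same chromosome. Whether the neighbours differed from these genes in their change was not tested.

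**Figure D3:**
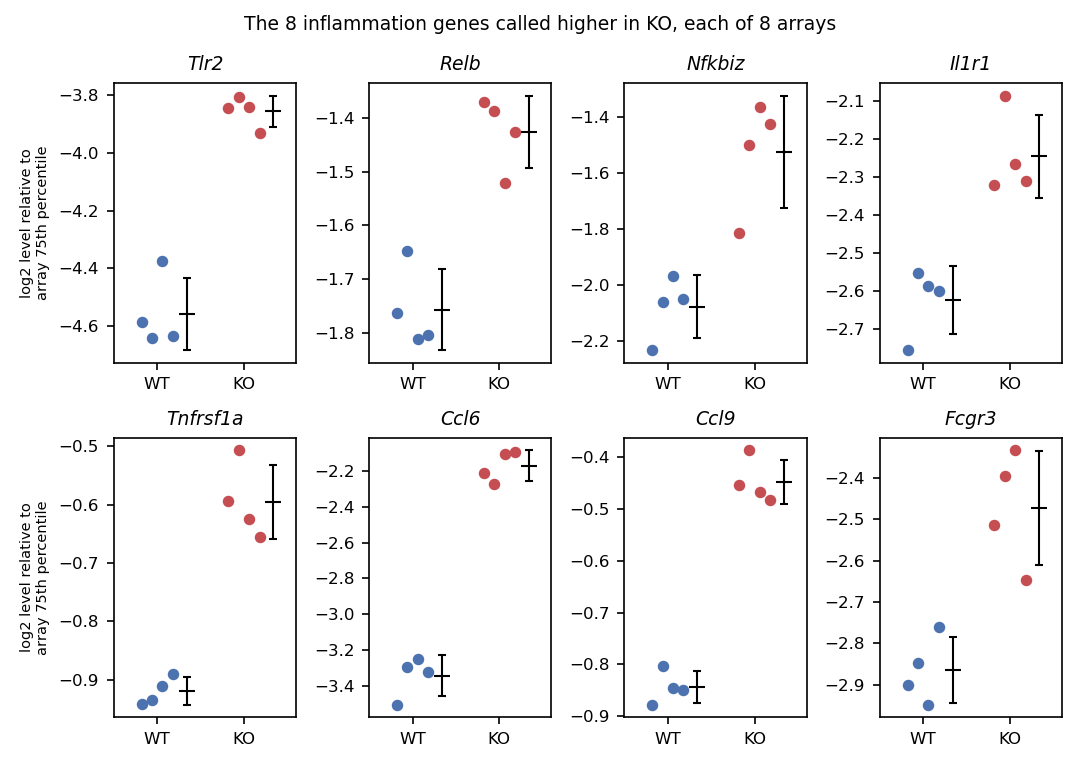
Levels of the 8 called genes on each of the 8 arrays, as log2 signal minus that of the array's 75th percentile (y axis, with its own range in each panel); blue points are the 4 WT arrays and red points the 4 KO arrays, and the black mark with bars is the mean ± SD of each genotype. In every panel the lowest red point is above the highest blue point, by the widest margin for Ccl6 and the narrowest for Fcgr3.

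The other chemokines divided into genes measured on all arrays and the dim Cxcl10. Cx3cl1, a chemokine that neurons display and that microglia sense through Cx3cr1, had levels of 3.41, 3.43, 3.40 and 3.37 in WT and 3.56, 3.64, 3.64 and 3.61 in KO. The genotypes did not overlap. The difference was 0.21 (SE 0.04, adjusted p = 0.0233), under the minimum fold. Cxcl12, the ligand of Cxcr4, read 0.63, 0.81, 0.73 and 0.75 in WT and 0.94, 1.07, 0.97 and 0.90 in KO. All KO arrays were above the WT arrays, with a difference of 0.24 (SE 0.05, adjusted p = 0.0456), also under the minimum fold, and another probe gave 0.26 (adjusted p = 0.121). Cxcl16, a membrane-bound chemokine and scavenger receptor, differed by 0.08 (SE 0.06, adjusted p = 0.486).

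Cxcl10, an interferon-induced chemokine for T cells, was at background on the WT arrays and well above it on 2 KO arrays. It read -6.71, -5.48, -7.11 and -6.08 in WT and -3.08, -5.75, -3.40 and -5.08 in KO. KO arrays 1 and 3 were far above the rest, while KO array 2 read below WT array 2. No fold is given, and in the fit with no filter Cxcl10 was not called (adjusted p = 0.199).

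**Figure D4:**
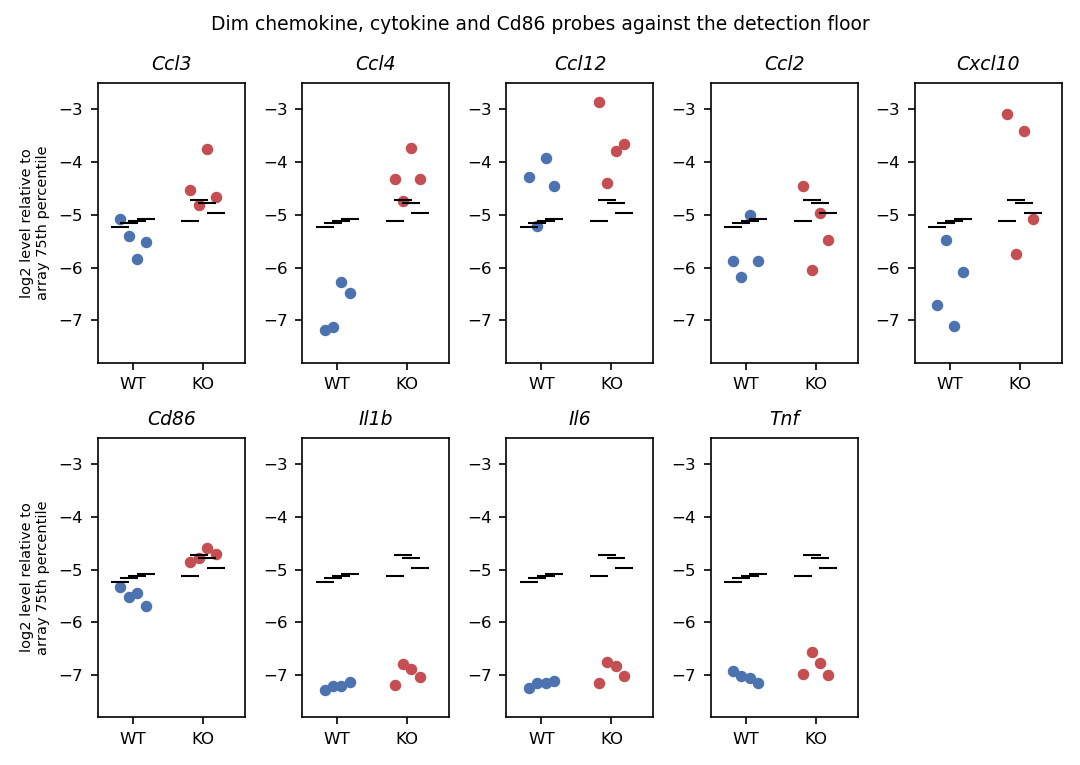
Readings of 9 dim genes on each array, as log2 signal minus that of the array's 75th percentile (y axis, the same range in all panels); blue points are WT arrays, red points KO arrays, and the short black bar at each point's position is the lowest signal among probes well above background on that array, which a point can exceed without itself being well above background. Ccl4 and Cxcl10 cross that limit on some KO arrays and on no WT array, Ccl12 lies above it on most arrays of both genotypes, and Il1b, Il6 and Tnf stay below it on all 8 arrays.

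Fc receptors bind antibody-coated particles, and the activating ones signal through the shared chain Fcer1g. Fcgr3, an activating receptor of low affinity for IgG, had levels of -2.90, -2.85, -2.95 and -2.76 in WT and -2.51, -2.39, -2.33 and -2.65 in KO. KO array 4 was the lowest of its group and lay just above WT array 4, the highest of the WT arrays. The difference was 0.39 (SE 0.08, adjusted p = 0.0295), a ratio of 1.31. The Fcgr3 call was lost without any array other than KO array 1 or 4, with adjusted p of 0.0819 without KO 2, 0.063 without KO 3, 0.0729 without WT 1, 0.0777 without WT 2, 0.0802 without WT 3 and 0.0514 without WT 4.

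Fcer1g read 0.03, 0.09, 0.00 and 0.12 in WT and 0.21, 0.46, 0.30 and 0.31 in KO. All its KO arrays lay above its WT arrays. The difference of 0.26 (SE 0.06, adjusted p = 0.0468) had an adjusted p under the threshold and stood just under the minimum fold. It was called without KO array 1, at 0.29 (adjusted p = 0.0408), and under 5 of 14 alternatives that kept all arrays, over which the difference ran from 0.19 to 0.28.

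Among the leukocyte genes, Laptm5 and Ptprc were tested and not called, and Cd86 was too dim on the WT arrays to be tested. Laptm5, a lysosomal membrane protein of blood-derived cells and microglia, read -2.07, -2.32, -2.45 and -2.58 in WT and -1.86, -1.73, -2.02 and -1.98 in KO. The genotypes did not overlap, and the difference was 0.46 (SE 0.11, adjusted p = 0.0573). Another Laptm5 probe gave 0.34 (adjusted p = 0.0745). The brighter probe was called without WT array 1, at 0.55 (adjusted p = 0.0406), and Laptm5 was called under 5 of 15 alternatives that kept all arrays, over which the difference ran from 0.36 to 0.49. Ptprc, the common leukocyte antigen CD45, differed by 0.28 (SE 0.11, adjusted p = 0.162), with KO array 1 within the WT range.

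Cd86, a costimulatory molecule of antigen-presenting cells, was well above background on no WT array and on KO arrays 1, 3 and 4. It read -5.33, -5.52, -5.45 and -5.69 in WT and -4.86, -4.79, -4.59 and -4.71 in KO. Every KO reading was above every WT reading, and with no filter Cd86 was called (adjusted p = 0.0330).

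Csf1 and Il34 are the ligands of the receptor Csf1r, on which microglia depend for survival. Csf1 had levels of -1.82, -1.89, -1.95 and -1.83 in WT and -1.47, -1.67, -1.75 and -1.73 in KO at the brightest of its 3 probes, the others being well above background on at most 1 array. The genotypes did not overlap, KO array 1 being the highest, and the difference was 0.22 (SE 0.07, adjusted p = 0.101). Il34, which is made by neurons, read 0.19, 0.24, 0.17 and 0.22 in WT and 0.33, 0.34, 0.38 and 0.42 in KO. The KO arrays all lay above the WT arrays, and the difference of 0.16 (SE 0.04, adjusted p = 0.0469) was under the minimum fold. Their receptor Csf1r differed by 0.19 (SE 0.04, adjusted p = 0.0251), also under the minimum fold.

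Receptors of the chemokines above were measured unevenly. Ccr1, the receptor of Ccl6, Ccl9, Ccl3 and Ccl5, and Ccr2, the receptor of Ccl2 and Ccl12, were not well above background on any array. Cx3cr1, the microglial receptor of Cx3cl1, differed by 0.23 (SE 0.05, adjusted p = 0.0464), under the minimum fold. Cxcr4, the receptor of Cxcl12, differed by -0.53 (SE 0.23, adjusted p = 0.205), with all 4 KO values below the WT values and 3 of the 4 KO arrays well above background.

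A wider list of 134 further genes of the same pathways was counted for comparison, of which 130 were on the array and 78 were tested. Of these 78, 47 were higher in KO, 1 was called higher and 1 was called lower, with a median difference of 0.04. These calls stand beside the 2.2% called higher and 1.77% called lower among all tested genes. The KO values lay above all WT values in 14 of the 78 and below them in 7, where this held for 8.77% and 12.4% of all tested genes. The called genes were Ifih1, a cytoplasmic sensor of double-stranded RNA, at 0.53 (SE 0.11, adjusted p = 0.0408), and Tlr12, a Toll-like receptor for a parasite protein, at -0.59 (SE 0.09, adjusted p = 0.0182). The Ifih1 call was lost without KO array 3 or 4 or any WT array (adjusted p up to 0.108, without WT array 2), and the Tlr12 call without KO array 2 or 4 or WT array 1 (adjusted p = 0.0570, 0.0518 and 0.0504). The counterpart counts among the 35 tested genes above were 8 and 0, with a median of 0.20. Of the wider list, 42 genes were not well above background on any array, among them Il10, Il12a, Il17a, Il23a, Csf2, Csf3 and 15 chemokines.

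Markers of the cells that express these genes were set beside them. Of 12 genes known from microglia and macrophages, 11 were on the array and all 11 were tested. All 11 were higher in KO, where this held for 42.1% of all tested genes. Called higher were 4 of the 11, beside 2.2% of all tested genes. They were Tyrobp by 0.65, Trem2 by 0.49, Aif1 by 0.45 and Adgre1 by 0.70 at the dimmer of its probes. The brighter Adgre1 probe gave 0.38 (adjusted p = 0.066), with overlapping genotypes, and was not called. The Aif1 call was lost without WT array 2 or 3 or KO array 3 or 4 (adjusted p = 0.0505, 0.0592, 0.0527 and 0.0560). The median difference of the 11 genes was 0.26. In 7 of them all KO values lay above all WT values, against 8.77% of all tested genes. Their summed relative signal was 123 to 170 in WT and 153 to 186 in KO, which overlap. The sum weighs bright probes such as those of Siglech and Itgam most, and without Siglech it was 29.1 to 37.1 in WT and 31.9 to 38.4 in KO, which overlap as well. P2ry12 and Tmem119, markers of resident microglia, differed by 0.06 (SE 0.07, adjusted p = 0.667) and 0.26 (SE 0.08, adjusted p = 0.0897). Whether the higher inflammation genes followed a larger share of microglial RNA was not tested.

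Of the defining genes of cells that could enter from blood, S100a8, Mpo and Ngp of neutrophils, Ccr2 of monocytes, and Cd3g and Ms4a1 of lymphocytes were not well above background on any array. No gene of the neutrophil, monocyte, lymphocyte, blood, lens or pigment epithelium lists was called. The endothelial list had 0 of 5 genes higher in KO, 0 called and a median of -0.17. Müller glia genes had a median of 0.21 with 2 of 6 called higher, Kcnj10 and Clu. Rod genes had a median of -0.26 with 3 of 6 called lower, Sag and Nr2e3 among them. Over all tested genes 2.2% were called higher and 1.77% were called lower. Leaving out 1 array ended the calls of Kcnj10 (without KO array 2, adjusted p = 0.0511), Clu (without WT array 2, adjusted p = 0.0532) and Nr2e3 (without any array other than KO array 1, adjusted p = 0.0512 to 0.0639). The part that these shifts have in the differences of the inflammation genes was not tested.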

How the data were processed

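Total RNA of whole retina (4 WT and 4 KO samples) was hybridised by the authors in 1 colour (Cy3), and the scans were quantified with Agilent Feature Extraction 10.7.1.1, per the submitters' processing notes. The deposited scanner files hold processed signal intensity on a linear scale, background-subtracted and not scaled between arrays, for 62976 spots. The authors also deposited a table on a log2 scale after a 75th percentile shift, and it differed from the levels computed here by a constant of 0.12 to 0.15 per array, so it served as an alternative only. The number of per-sample columns not used was 0.

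Levels here were log2 processed signal minus the 75th percentile over 59305 non-control spots. The 3671 control spots were left out. Spots marked as outliers (86 to 147 per array) were left out too, but a probe whose spots were all marked kept its value. Repeated spots of a probe were averaged, and no spot was saturated (0 spots). The signal at the 75th percentile was 638 to 738, and 4 arrays per genotype limit the precision. Symbols came from a RefSeq table by transcript accession, which named 26413 of 55681 probes (47.4%). Its assembly differs from that of the array design, so for the probes it gave names and gene order only. Promoter sequences and start positions came from a separate RefSeq table of GRCm38.p6 and were matched by gene. A gene with several probes was valued at its brightest tested probe and called when any of its probes was.

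The comparison of KO with WT used limma 3.58.1 (lmFit, eBayes; R 4.3.3) with genotype as the only term. P-values were adjusted by Benjamini-Hochberg over the 33972 probes tested, and calls needed an adjusted p below 0.05 with a change of more than 1.2-fold. The fit was tested on simulated data. Where no array of a genotype had a reading well above background, no fold is given.

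The genes and lists were chosen with earlier results of these data known. Values on every array are given for each called gene, for a fixed group of genes (Tlr4, Myd88, Nfkbia, Nfkb1, Rela, Nlrp3, Casp1, Il1b, Il18, Tnf, Il6, Ccl2, Cxcl10, Cxcl12, Cx3cl1, Csf1, Il34, Tgfb1 and Cd86) and for probes of a gene that differ in call. Those of Ccl3, Ccl4, Ccl5, Ccl12, Fcer1g and Laptm5, and the chemokine receptors Ccr1 and Ccr2, were added after their values were seen. Some genes of the wider and marker lists are not reported here by name. Alternatives were other scalings (quantile, median, detected probes, cyclic loess), normexp (offset 50) on median signals, other filters, the authors' values, outlier spots kept, the methods' t-test, trend and robust eBayes, a fold minimum of 1.5 or none, other rules for a gene's probes, replicate number as a block, and leaving out each array. All arrays shared 1 slide, so no slide block was fitted.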

Additional observations from a re-analysis of the deposited data

Results flagged for a closer look

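Of 110 groups of 4 arrays examined (each gene in each genotype), 3 held an array that stood apart from the other arrays of its genotype by Dixon's test, where chance gives about 1 in 20. Tlr4 read -6.11 on KO array 4, below the other KO arrays at -5.67 to -5.59. Tlr6 read -6.61 on WT array 4, above the other WT arrays at -7.39 to -7.27. Tnfrsf1b read -6.59 on WT array 1, above the other WT arrays at -7.22 to -7.13. These 3 genes had no reading well above background, so the readings are background values.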

How the results depend on the processing

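The number of all probes called, 992, was 661 with a median shift, 247 with no filter, 138 at a fold minimum of 1.5, 1871 with no fold minimum and 388 (without WT array 2) to 1178 (without KO array 1) without 1 array. The called inflammation genes, 8, were 2 at a fold minimum of 1.5 (Ccl6 and Tlr2), 13 with no fold minimum, and 4 to 9 without 1 array, with 0 called lower under each alternative. They were 11 with cyclic loess. Their median difference of 0.20 was 0.12 with normexp, and no other setting moved it beyond 0.17 to 0.22. The count of genes lying wholly lower in KO, 0, became 1 without KO array 2, KO array 4 or WT array 3. No called gene changed direction under these alternatives. With replicate number as a block, 394 probes and 6 inflammation genes were called, without Fcgr3 (adjusted p = 0.0815) and Tnfrsf1a (adjusted p = 0.0534). Deviations of same-numbered arrays correlated at 0.235, 0.0552, 0.026 and 0.1023 over probes, and 7 of the 8 arrays, all but WT array 3, correlated best with their own number. This is a hint from the data, not from the design: not every correlation was over 0.1, and the labels name nothing that a number shares. Signal over background limits the dim genes, 12 of which were below it on all arrays. The causes of these changes were not tested.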
